A study of Mus musculus with 6 samples.

Results

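The mitochondrial genome of the mouse encodes 37 RNAs, and all 37 had a row in the deposited table of 52550 gene IDs. They were found by joining the IDs to the GENCODE annotation of GRCm38 and keeping every gene on the mitochondrial chromosome, whose symbols all begin with mt-. They comprised 13 mRNAs, 2 rRNAs and 22 tRNAs. They were measured in wildtype C57BL/6 mice at postnatal day 8, in granule cells (GCs), small glutamatergic neurons of the cerebellum, which were dissociated with trypsin before lysis. RNA immunoprecipitation followed by sequencing (RIP-seq) gave 6 libraries, namely 2 of input (RNA of the lysate without selection), 2 of anti-YTHDF1 RIP and 2 of anti-YTHDF2 RIP. All 3 groups share the strain, genotype and age. A library from a nonspecific antibody was not analysed here, so a RIP was compared with input only. The labels do not say that replicates came from separate animals or cultures, so the p-values reflect only how these libraries vary, and that spread can be technical.

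YTHDF1 and YTHDF2 are proteins of the cytosol that bind N6-methyladenosine, a modified base of mRNA. Mitochondrial RNAs are made and kept inside the mitochondrial matrix, behind both membranes of the organelle. Each strand of the mitochondrial genome is transcribed as a long precursor, in which tRNAs lie between most mRNAs and rRNAs, and excision of the tRNAs releases the other RNAs. The mRNAs encode membrane subunits of the respiratory chain and of ATP synthase, and the rRNAs form the mitochondrial ribosome that translates them with the mitochondrial tRNAs. Neurons depend on the respiratory chain for much of their ATP.

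The unit was FPKM, which divides the fragments of a gene by its length and by the total of its library. Read counts and depth are unknown. Between 9503 and 12627 genes reached 1 FPKM in a library. Of 12 granule cell markers 10 reached a mean of 1 FPKM in input. So did 7 of 7 astrocyte and Bergmann glia markers, 7 of 7 of the oligodendrocyte lineage, 5 of 6 of Purkinje cells and 4 of 6 of microglia. Reaching 1 FPKM therefore did not set granule cells apart from other cell types. The summed markers of astrocytes and Bergmann glia also stood at 261 to 288 FPKM in input, and the part of other cells in the mitochondrial values was not tested. In bulk material like this, fewer cells of a type and less RNA per cell cannot be told apart. RIP replicates stood apart from each other. All 13 mitochondrial mRNAs were higher in replicate 2 than in replicate 1 of both RIPs, by 5.93- to 16.7-fold with YTHDF1 and by 3.73- to 15.9-fold with YTHDF2, whereas the ratio of the input replicates lay between 0.699 and 1.14.

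Mitochondrial RNAs took a much smaller part of the signal in both RIPs than in input. Of the summed FPKM they held 18.4% in replicate 1 of input and 18.0% in replicate 2. They held 0.607% and 3.68% with YTHDF1, and with YTHDF2 0.0892% and 0.886%. Every RIP library was below both input libraries, and the YTHDF2 RIP was below the YTHDF1 RIP of the same replicate number. The mean share was 8.49-fold lower than input with YTHDF1 and 37.4-fold lower with YTHDF2. It was 4.98- and 26.5-fold lower within the sum of mitochondrial and nuclear coding genes, and 10.98- and 67.8-fold lower with FPKM weighted by gene length. The fold moved with the RIP library. On the log2 scale it was -3.09 with YTHDF1 and -2.31 or -4.91 without replicate 1 or replicate 2 of that RIP, and it was -5.22 with YTHDF2 and -4.36 or -7.67 without the respective replicate. By class, the mRNA share was 11.3- and 10.4-fold lower, the tRNA share 2.35- and 2.19-fold lower and the rRNA share 8.29- and 63.1-fold lower, with YTHDF1 and YTHDF2, so the RIPs stood far apart in rRNA and close in the other classes. Most of the input share was rRNA, at 16.1% and 15.9% of the sum. Among protein-coding RNAs alone, the 13 mitochondrial mRNAs made up 22.8% and 19.9% of the coding FPKM in input. That share was 0.283% and 2.66% with YTHDF1 and 0.313% and 1.96% with YTHDF2. Nuclear coding genes were a small part of the whole sum, with 65803 of 852930 FPKM in input replicate 1. Of the mitochondrial and nuclear coding FPKM together, all 37 members held 70.5% and 68.5% in input. They held 5.68% and 22.2% of it with YTHDF1 and 0.783% and 4.47% with YTHDF2.

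**Figure D1:**
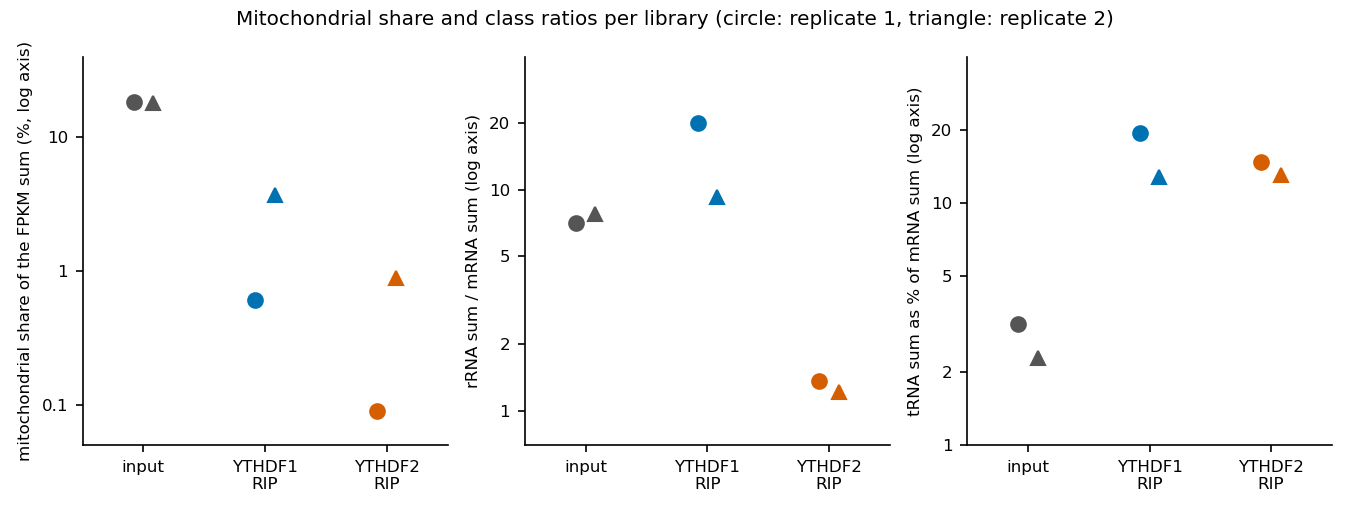
Per library, the mitochondrial share of the FPKM sum (left, percent), the rRNA sum over the mRNA sum (middle) and the tRNA sum as a percent of the mRNA sum (right), all on log axes, with circles for replicate 1 and triangles for replicate 2. The share was 18.4% and 18.0% in input and between 0.0892% and 3.68% in the RIPs, the rRNA to mRNA ratio was lowest in the YTHDF2 RIP, and the tRNA percent was higher in all 4 RIP libraries than in input.

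Of the 37 members, 34 averaged 1 FPKM or more across the 6 libraries and were tested with limma on log2(FPKM + 1). The 3 untested ones were the tRNAs mt-Tq, mt-Ts1 and mt-Td. Against input, 4 members were lower in the YTHDF1 RIP at an adjusted p under 0.05 and 17 in the YTHDF2 RIP, and 0 were higher in either (22 members had an unadjusted p under 0.05 in each contrast). Over all 11057 tested genes 1.94% were called lower with YTHDF1 and 6.66% with YTHDF2, and 0.624% and 11.9% were called higher. At an unadjusted p under 0.05, 1498 and 1499 of the tested genes were lower and 1455 and 2649 higher. All 34 changes were negative in both contrasts, which share the input libraries. The median change of the mRNAs was -5.33 on the log2 scale with YTHDF1 and -5.08 with YTHDF2, that of the rRNAs was -4.27 and -7.31, and that of the tested tRNAs was -1.34 and -1.41. The median of all tested genes was 0.05 and 0.26. The counts of called members changed when 1 library was left out, which leaves 1 group with a single library that is assumed to vary like the other groups. The calls with YTHDF1 were lost without either input library or either YTHDF1 RIP library, and were more numerous without either YTHDF2 RIP library. The calls with YTHDF2 were lost without either input library and were fewer without YTHDF2 RIP replicate 1. The changes themselves hardly moved without an input library. The mRNA median was then -5.36 or -5.28 with YTHDF1 and -4.98 or -5.19 with YTHDF2, while the calls over all genes went from 284 to 8 or 0 and from 2049 to 9 or 0. Without a RIP library the changes did move. The mRNA median with YTHDF1 was -3.67 without YTHDF1 RIP replicate 1 and -6.82 without replicate 2, and that with YTHDF2 was -3.39 and -6.34 without the same replicates of the YTHDF2 RIP.

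The direction of the raw values was more even than the calls. In each RIP, 26 of the 34 tested members had both RIP libraries below both input libraries (13 mRNAs, 2 rRNAs and 11 tRNAs). Of all tested genes, 30.2% did so with YTHDF1 and 24.9% with YTHDF2. The ratio of the RIP mean to the input mean was under 0.5 for 26 members in each RIP (13 mRNAs, 2 rRNAs and 11 tRNAs), where 19.1% and 16.9% of all tested genes were that low. A ratio above 2, which the study took as enrichment, was reached by 0 members, where 23.3% and 34.5% of all tested genes reached it. These were 2579 and 3812 genes by the ratio of group means. The study reported far fewer enriched mRNAs, so its selection was not reproduced here.

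**Figure D2:**
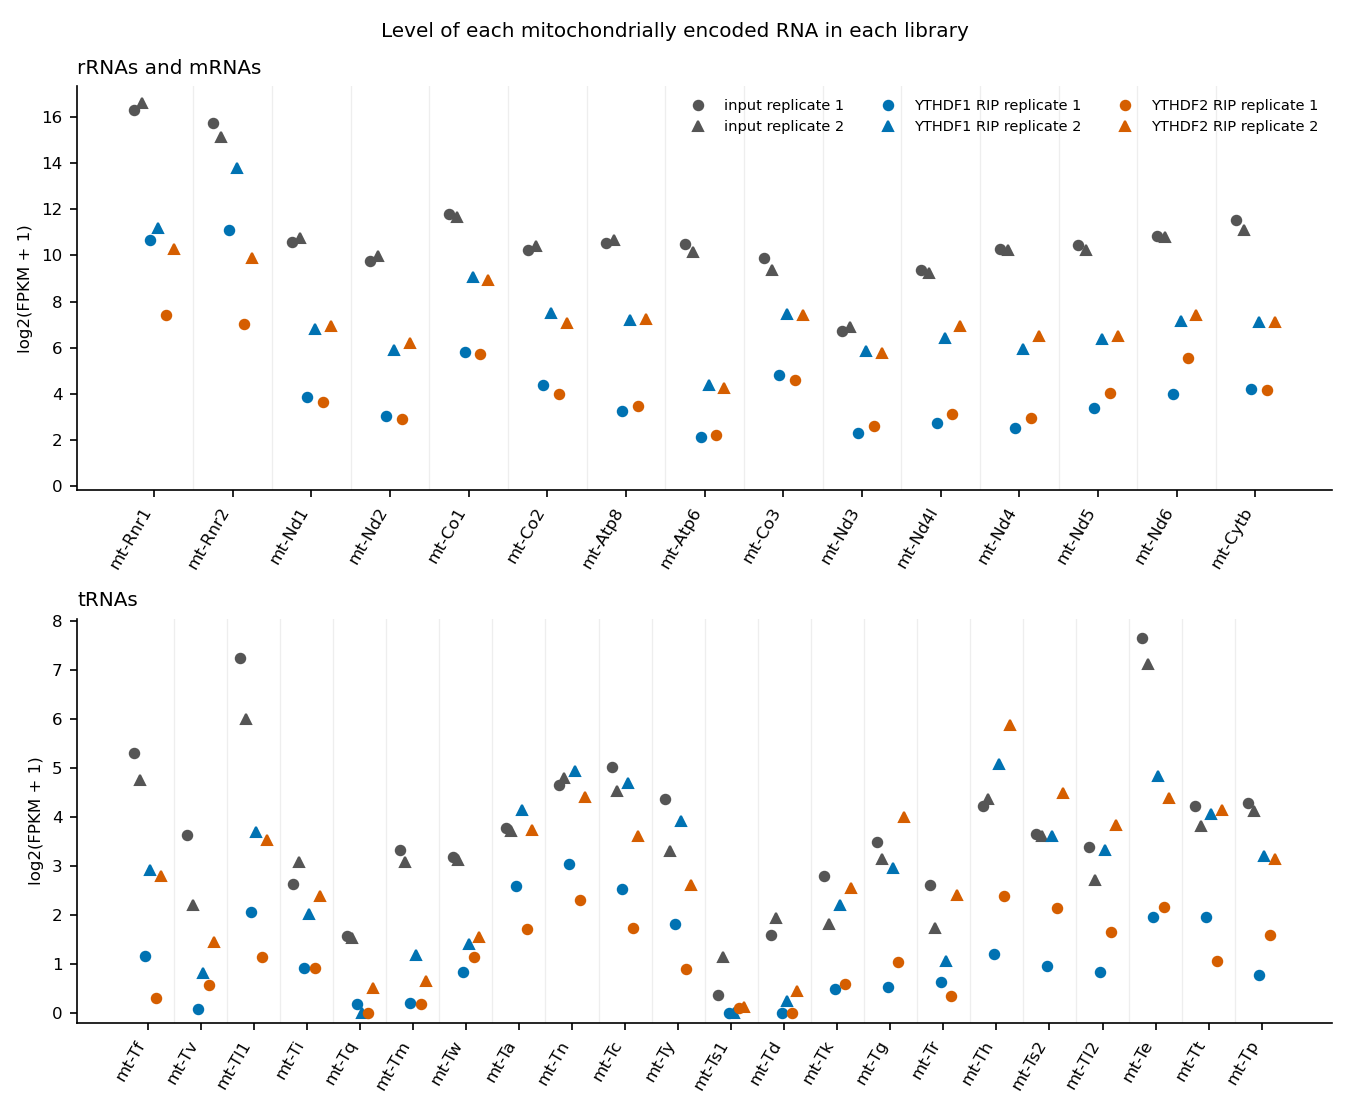
Level of each of the 37 members in each library as log2(FPKM + 1), with rRNAs and mRNAs above and tRNAs below, in genome order within each class (grey input, blue YTHDF1 RIP, orange YTHDF2 RIP, circles replicate 1, triangles replicate 2). For all 13 mRNAs and both rRNAs the 4 RIP libraries lie below the 2 input libraries, while for several tRNAs, among them mt-Th, mt-Ts2 and mt-Tl2, replicate 2 of a RIP reaches or passes the input.

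The rRNAs were the most abundant members in input, and their values were lower in the YTHDF2 than in the YTHDF1 RIP. mt-Rnr1, the rRNA of the small mitochondrial ribosomal subunit (chromosome M, 70 to 1024), stood at 82738 and 101741 FPKM in input. It stood at 1653 and 2330 FPKM in the YTHDF1 RIP and at 170 and 1256 FPKM in the YTHDF2 RIP. The 3 groups did not overlap. Against input it fell by 5.55 on the log2 scale with YTHDF1 (SE 1.06, adjusted p = 0.0454 by limma) and by 7.63 with YTHDF2 (SE 1.06, adjusted p = 0.0145 by limma). The latter was the largest fall of all tested genes. Between the antibodies the difference of mt-Rnr1 was -2.08 (SE 1.06), with an unadjusted p = 0.0867 and an adjusted p = 0.864 by limma. Its YTHDF2 over YTHDF1 ratio was 0.103 in replicate 1 and 0.539 in replicate 2.

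mt-Rnr2, the rRNA of the large subunit (chromosome M, 1094 to 2675), stood at 54515 and 36744 FPKM in input. It had 2175 and 14323 FPKM in the YTHDF1 RIP and 129 and 949 FPKM in the YTHDF2 RIP. YTHDF1 RIP replicate 2 thus kept more mt-Rnr2 than any other RIP library, and again the groups did not overlap. Its change was -3.00 with YTHDF1 (SE 1.27, adjusted p = 0.182 by limma) and -6.99 with YTHDF2 (SE 1.27, adjusted p = 0.0182 by limma). The difference between the antibodies was -3.99 (SE 1.27), the lowest of all tested genes, with an unadjusted p = 0.0149 and an adjusted p = 0.864 by limma. That SE includes the shift between replicate numbers that both RIPs shared. Within a replicate number the YTHDF2 over YTHDF1 ratio of mt-Rnr2 was 0.0595 in replicate 1 and 0.0663 in replicate 2. The ratio of mt-Rnr2 to mt-Rnr1 in FPKM was 0.659 and 0.361 in input, 1.32 and 6.15 with YTHDF1 and 0.760 and 0.756 with YTHDF2. Only in the YTHDF1 RIP libraries was mt-Rnr2 above mt-Rnr1.

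The rRNA sum over the mRNA sum was 7.08 and 7.75 in input, 20.1 and 9.32 with YTHDF1 and 1.37 and 1.21 with YTHDF2. Both YTHDF1 RIP libraries were above input and both YTHDF2 RIP libraries below it. The upward shift with YTHDF1 rested on mt-Rnr2. Without it the ratio was 8.67 and 1.30 in the YTHDF1 RIP, on either side of 4.27 and 5.69 in input, and 0.777 and 0.689 in the YTHDF2 RIP.

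The mRNAs of complex I, the NADH dehydrogenase, form the largest group. mt-Nd1 (chromosome M, 2751 to 3707) stood at 1549 and 1713 FPKM in input, at 13.5 and 113 FPKM in the YTHDF1 RIP and at 11.4 and 123 FPKM in the YTHDF2 RIP. mt-Nd2 (3914 to 4951) stood at 873 and 995 FPKM, then at 7.27 and 58.1 FPKM and at 6.44 and 73.6 FPKM, in the same order of groups. Both were far below input in every RIP library, and the RIPs overlapped each other. Their changes with YTHDF2 were -5.38 and -5.31 (SE 1.25 and 1.22, adjusted p = 0.0300 and 0.0291 by limma). With YTHDF1 they were -5.33 and -5.40, neither past the threshold (adjusted p = 0.0655 and 0.0595 by limma).

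mt-Nd4 (10167 to 11544) stood at 1253 and 1204 FPKM in input, 4.68 and 60.4 FPKM with anti-YTHDF1 and 6.64 and 88.5 FPKM with anti-YTHDF2. It fell by 5.55 with YTHDF2 (SE 1.36, adjusted p = 0.0337 by limma), and its change with YTHDF1 was -6.04 (adjusted p = 0.0592 by limma). mt-Nd4l (9877 to 10173), whose end overlaps the start of mt-Nd4 by 7 bases, stood at 662 and 606 FPKM in input, 5.55 and 84.0 FPKM with anti-YTHDF1 and 7.67 and 122 FPKM with anti-YTHDF2. For mt-Nd4l neither change passed, at -4.75 and -4.28 (adjusted p = 0.103 and 0.0762 by limma), although the groups were as clearly apart from input. mt-Nd4 was the more abundant of this overlapping pair in input, with a ratio of 1.89 and 1.99, and the less abundant in every RIP library, with ratios of 0.719 to 0.866. These ratios leave out the nuclear copies of both genes, described further on. With the copies added, mt-Nd4 stood at 1770 and 1751 FPKM in input and mt-Nd4l at 1319 and 1206 FPKM. mt-Nd4 was again the less abundant in every RIP library.

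mt-Nd3 (9459 to 9806) was the least abundant mRNA in input and the least lowered in the RIPs. It stood at 103 and 117 FPKM in input, 3.97 and 56.9 FPKM with anti-YTHDF1 and 5.10 and 53.2 FPKM with anti-YTHDF2. The input mean was 3.62- and 3.78-fold above the RIP means. Its changes of -2.71 and -2.61 (SE 1.29 each) did not pass (adjusted p = 0.226 and 0.182 by limma).

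mt-Nd5 (11742 to 13565) stood at 1406 and 1213 FPKM in input, 9.52 and 82.1 FPKM with anti-YTHDF1 and 15.2 and 90.9 FPKM with anti-YTHDF2. mt-Nd6 (13552 to 14070) is the single mRNA on the minus strand and overlaps the end of mt-Nd5 by 14 bases. It stood at 1841 and 1763 FPKM in input, 14.9 and 141 FPKM with anti-YTHDF1 and 46.0 and 171 FPKM with anti-YTHDF2. For both, every RIP library was below input. They fell with YTHDF2 by 5.08 and 4.32 (SE 1.12 and 1.08, adjusted p = 0.0263 and 0.0356 by limma), and with YTHDF1 the changes were -5.47 and -5.25 (adjusted p = 0.0513 and 0.0517 by limma). The study's methods name a stranded library kit, the labels name an unstranded kit beside it, and use of strand in the counting was not stated in the sources at hand, so it is uncertain whether the mt-Nd6 values include antisense reads of the same stretch. The ratio of mt-Nd6 to mt-Nd5 was 1.31 and 1.45 in input, 1.56 and 1.72 with YTHDF1 and 3.03 and 1.88 with YTHDF2.

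mt-Cytb (14145 to 15288), the cytochrome b of complex III, was second to mt-Co1 in input among the mRNAs, at 2983 and 2228 FPKM. It had 17.2 and 135 FPKM in the YTHDF1 RIP and 16.9 and 138 FPKM in the YTHDF2 RIP. The RIPs gave nearly the same values at each replicate number, both far below input. Its change was -5.69 in both, with SE 1.19, and passed with YTHDF2 (adjusted p = 0.0237 by limma) but not with YTHDF1 (adjusted p = 0.0531 by limma).

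The 3 mitochondrially encoded subunits of complex IV, the cytochrome c oxidase, were lowered less than most mRNAs. mt-Co1 (5328 to 6872) was the most abundant mRNA in every library, with 3610 and 3239 FPKM in input, 55.2 and 534 FPKM with anti-YTHDF1 and 52.2 and 486 FPKM with anti-YTHDF2. mt-Co2 (7013 to 7696) stood at 1208 and 1369 FPKM in input, 19.9 and 183 FPKM with anti-YTHDF1 and 15.1 and 135 FPKM with anti-YTHDF2. mt-Co3 (8607 to 9390) stood at 958 and 670 FPKM in input, 27.1 and 174 FPKM with anti-YTHDF1 and 22.9 and 171 FPKM with anti-YTHDF2. All 3 were below input in every RIP library. Only mt-Co2 passed, with YTHDF2 (-4.78, SE 1.24, adjusted p = 0.0384 by limma). The changes of mt-Co1 were -4.30 and -4.41 (adjusted p = 0.103 and 0.0547 by limma), and those of mt-Co3 were -3.51 and -3.65 (adjusted p = 0.111 and 0.0609 by limma).

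The 2 mitochondrially encoded subunits of ATP synthase are encoded by overlapping reading frames. The last bases of mt-Atp8 (7766 to 7969) are the first of mt-Atp6 (7927 to 8607), and the 43 bases they share are shown in capitals below, because reads from them cannot be assigned to either gene by sequence (GENCODE transcripts, GRCm38, chrM:7907-7969 and chrM:7927-7989, plus strand).
mt-Atp8 end: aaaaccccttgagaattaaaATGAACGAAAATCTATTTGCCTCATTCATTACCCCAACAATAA
mt-Atp6 start: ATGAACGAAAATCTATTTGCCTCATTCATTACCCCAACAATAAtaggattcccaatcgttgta

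mt-Atp6 was the most strongly lowered mRNA in both RIPs, although with YTHDF1 that rank depended on the division of reads with a nuclear copy, described further on. It stood at 1443 and 1135 FPKM in input, 3.36 and 19.9 FPKM with anti-YTHDF1 and 3.57 and 18.1 FPKM with anti-YTHDF2. Input was 111- and 119-fold above the RIP means. It fell in both, with a change of -7.07 for YTHDF1 (SE 0.91, adjusted p = 0.0320 by limma) and -7.10 for YTHDF2 (SE 0.91, adjusted p = 0.0144 by limma). mt-Atp8 had 1504 and 1624 FPKM in input, 8.62 and 144 FPKM with anti-YTHDF1 and 10.1 and 150 FPKM with anti-YTHDF2. It fell by 5.26 with YTHDF2 (SE 1.49, adjusted p = 0.0482 by limma), and its change with YTHDF1 was -5.39 (adjusted p = 0.0853 by limma). The ratio of mt-Atp6 to mt-Atp8 was 0.959 and 0.699 in input, 0.390 and 0.138 with YTHDF1 and 0.355 and 0.121 with YTHDF2. It was lower in every RIP library than in input. Like the rank, the size of this shift depended on the division of reads with the nuclear copy of mt-Atp6, which the ratio leaves out. Only annotated nuclear transcripts were searched, so an unannotated copy of mt-Atp8 or of a tRNA would have been missed. With the copy of mt-Atp6 added, mt-Atp6 stood at 2954 and 2348 FPKM in input. It then stood at 11.9 and 128 FPKM with anti-YTHDF1 and at 13.8 and 111 FPKM with anti-YTHDF2.

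**Figure D3:**
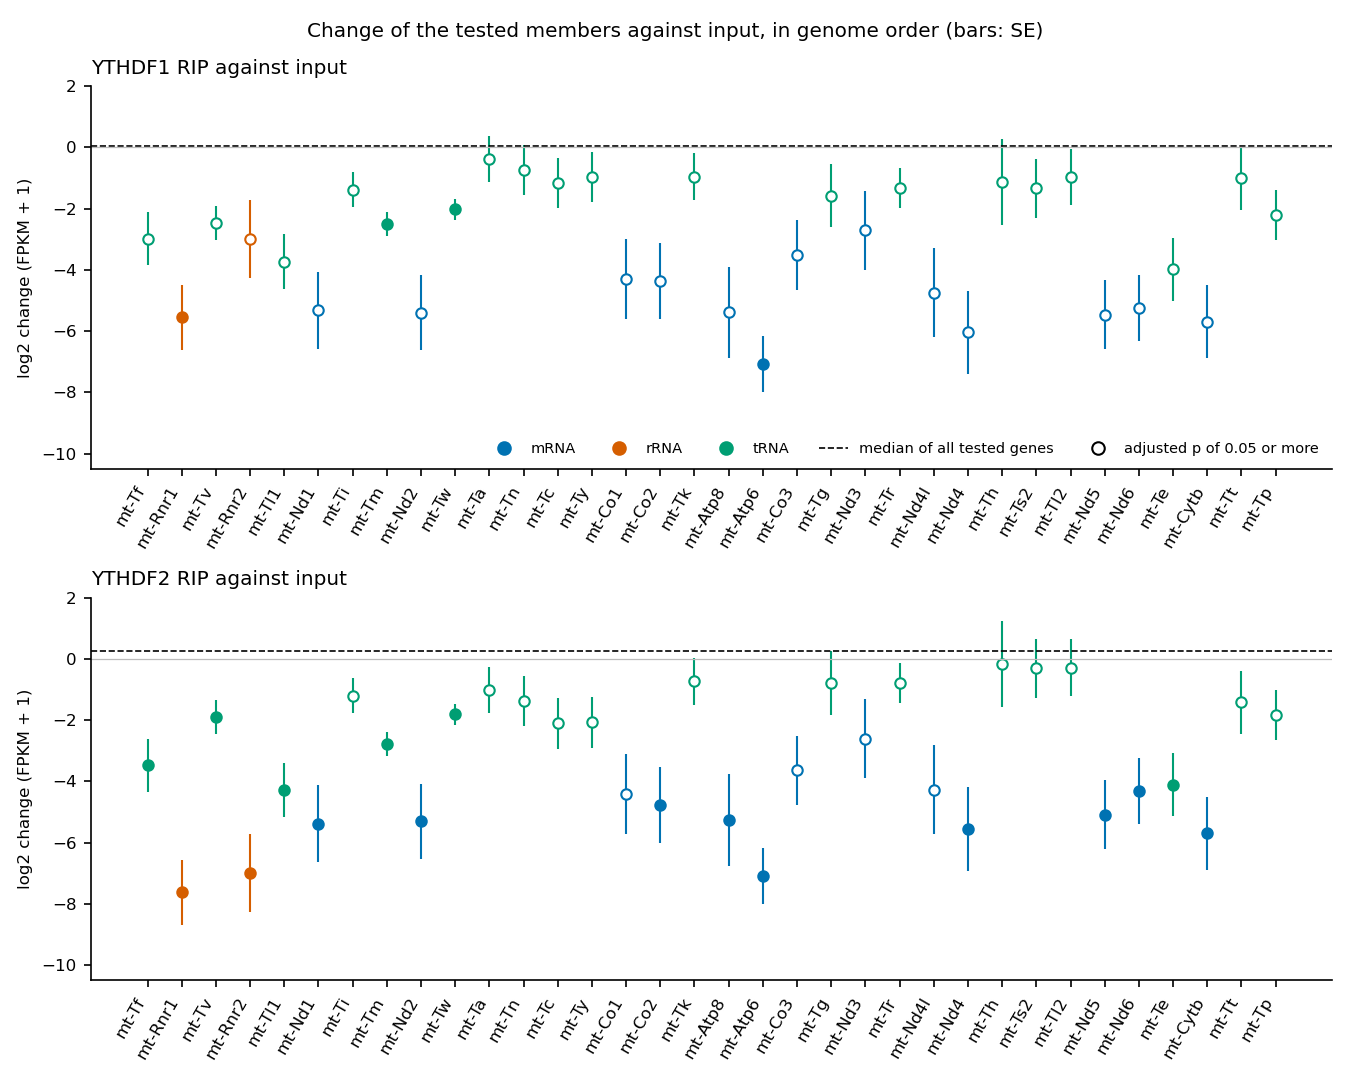
Change against input on the log2(FPKM + 1) scale, with its SE as bars, for the 34 tested members in genome order, YTHDF1 RIP above and YTHDF2 RIP below (blue mRNAs, orange rRNAs, green tRNAs, filled where the adjusted p was under 0.05, dashed line at the median of all tested genes). All 34 changes are negative in both contrasts, 4 and 17 are filled, and most tRNAs lie closer to 0 than the mRNAs around them.

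Several mitochondrial mRNAs have near-identical copies in the nuclear genome, and the division of reads between them bears on the values above. Of the 15 annotated nuclear genes that matched a member over at least 80% of their length at 90% identity, 10 averaged 1 FPKM or more. On chromosome 1, 7 unprocessed pseudogenes matched mt-Co1, mt-Co2, mt-Co3, mt-Atp6, mt-Nd3, mt-Nd4 and mt-Nd4l at 99.7% identity or more. The copies Gm28661, Gm28437, Gm10222 and Gm28438 of mt-Co2, mt-Co3, mt-Nd4l and mt-Nd3 had 97.6% to 102% of the FPKM of their members in every library. Gm29216 (chromosome 1, 24615706 to 24616197), which matches a stretch of mt-Co1, stood at 36.9% and 34.4% of mt-Co1 in input and at 47.1% to 55.7% in the RIPs. Gm28439, a copy of part of mt-Nd4, went the other way, from 65.0% and 71.4% of mt-Nd4 in input to between 39.7% and 46.0% in the RIPs. The 3 other copies lie on chromosome 2 (Gm13341, Gm13339 and Gm13340), match mt-Co2, mt-Nd2 and mt-Co1 at 95.9% to 97.6%, and had a mean of 1.91 to 3.75 FPKM.

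Gm10925 (chromosome 1, 24613974 to 24614651), which is identical to mt-Atp6 over its 678 bases, behaved differently. It had 1518 and 1218 FPKM in input, 8.57 and 109 FPKM with anti-YTHDF1 and 10.3 and 93.3 FPKM with anti-YTHDF2. In input this was 105% and 107% of mt-Atp6, and in the RIPs it was 255% to 546%. With the copies added to their members, an alternative chosen after seeing the data, the change of mt-Atp6 was -6.01 in both contrasts. The YTHDF1 call then ended (adjusted p = 0.0526 by limma) and the YTHDF2 call did not (adjusted p = 0.0230 by limma). Input was then 37.8- and 42.5-fold above the RIP means, instead of 111- and 119-fold. With YTHDF1, mt-Nd4 with its copy added was then lower than mt-Atp6, at -6.24, whereas with YTHDF2 mt-Atp6 remained the lowest mRNA. The rule by which reads were divided between the copy and mt-Atp6 was not stated in the sources at hand.

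**Figure D4:**
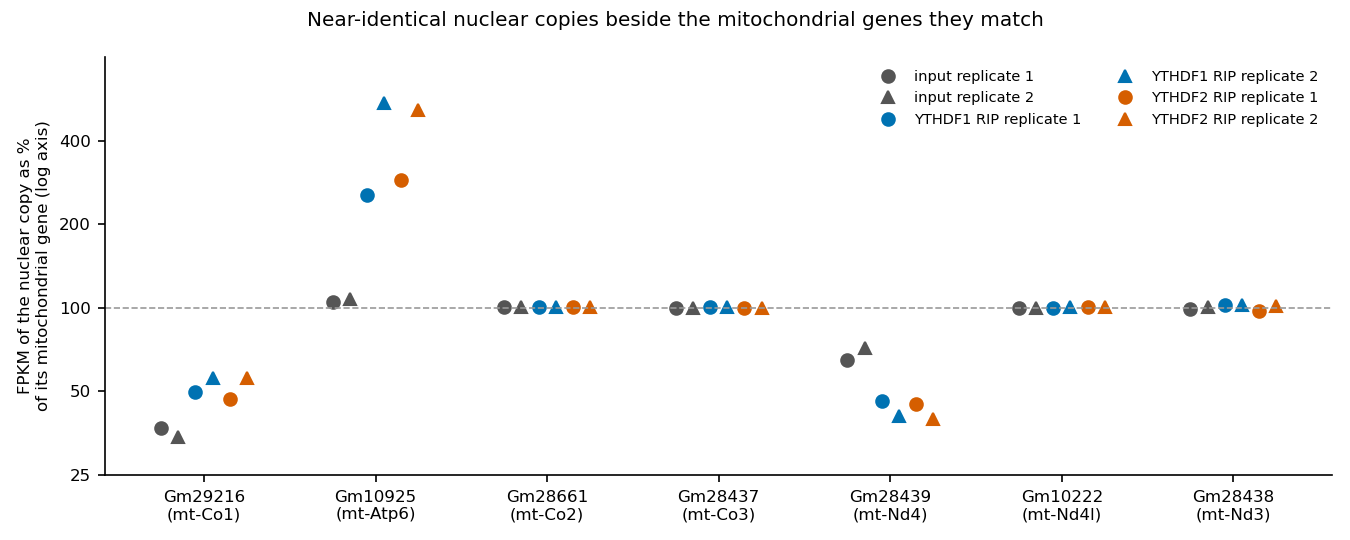
FPKM of 7 nuclear copies on chromosome 1 as a percent of the mitochondrial gene each matches, per library, on a log axis (grey input, blue YTHDF1 RIP, orange YTHDF2 RIP, circles replicate 1, triangles replicate 2; dashed line at 100%). The copies of mt-Co2, mt-Co3, mt-Nd4l and mt-Nd3 lie at about the level of their members, and Gm10925 rises from 105% and 107% of mt-Atp6 in input to between 255% and 546% in the RIPs.

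The mRNAs that remained in the RIPs had a different composition from input. As a share of the mitochondrial mRNA FPKM, mt-Co1 was 18.6% and 18.1% in input and 23.8% to 29.9% in the RIPs. mt-Co3 was 4.94% and 3.75% in input and 9.37% to 14.2% in the RIPs, and mt-Nd3 was 0.533% and 0.655% against 2.08% to 3.19%. These 3 took a larger part of the mRNAs in every RIP library than in either input library. mt-Atp6 took 7.44% and 6.35% in input and 0.995% to 1.76% in the RIPs, mt-Cytb took 15.4% and 12.5% against 7.56% to 9.01%, and mt-Nd4 took 6.46% and 6.74% against 2.45% to 4.86%. These 3 took less in every RIP library. The shares leave out the nuclear copies, so those of mt-Atp6 and of the other mRNAs with a copy depend on how reads were divided. mt-Nd6 held 20.99% in YTHDF2 RIP replicate 1 and 7.80% to 9.41% in the other RIP libraries, beside 9.49% and 9.86% in input.

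Across the 13 mRNAs, the log2 levels of the input libraries correlated at 0.982 (Pearson). An input and a RIP library correlated at 0.441 to 0.576, and RIP libraries at 0.851 to 0.968 with each other. The 13 points are genes of 1 genome that share libraries, some of them overlap or have copies, and no test was made. The pair with 0.968 was replicate 2 of the YTHDF1 RIP and replicate 2 of the YTHDF2 RIP.

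**Figure D5:**
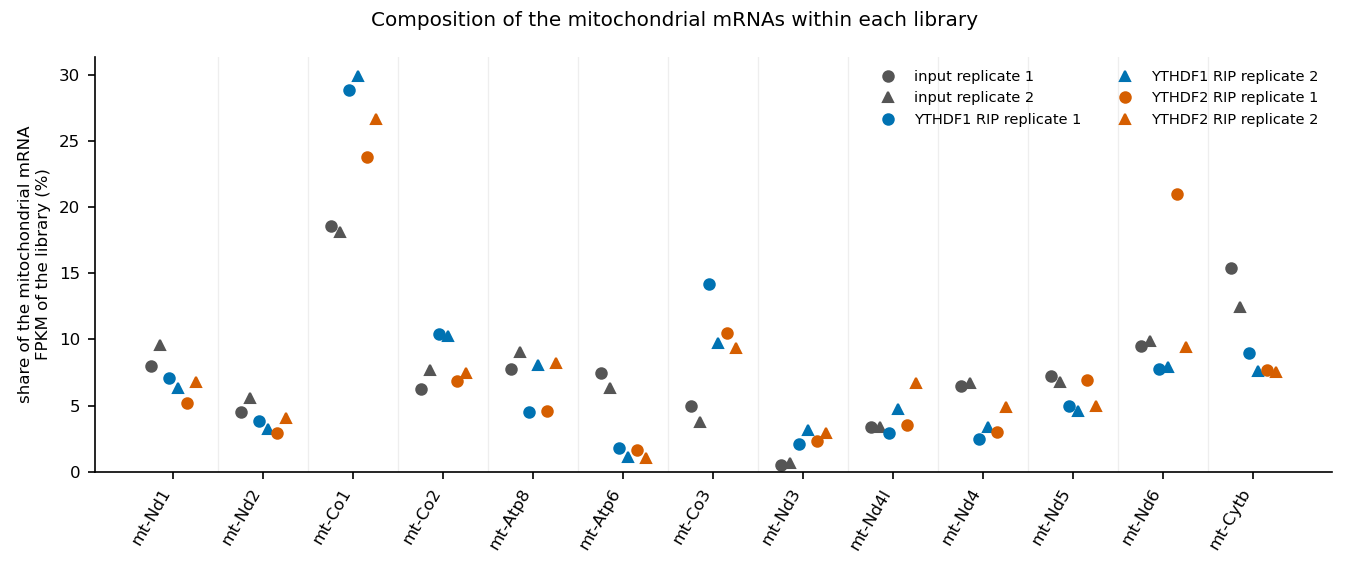
Share of each of the 13 mRNAs in the mitochondrial mRNA FPKM of its library, in percent (grey input, blue YTHDF1 RIP, orange YTHDF2 RIP, circles replicate 1, triangles replicate 2). mt-Co1, mt-Co3 and mt-Nd3 lie higher in the RIPs than in input and mt-Atp6, mt-Cytb and mt-Nd4 lower, and mt-Nd6 stands apart at 20.99% in YTHDF2 RIP replicate 1. The FPKM of nuclear copies is not included.

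The tRNAs had the smallest median change of the 3 classes, and they differed widely among themselves. Their genes are 59 to 75 bases long, shorter than the fragments that such libraries usually hold, so a tRNA value can also come from fragments of a precursor or of a neighboring RNA, and the FPKM of so short a gene is uncertain. The tRNA sum was 3.17% and 2.28% of the mRNA sum in input, 19.5% and 12.7% with YTHDF1 and 14.7% and 12.99% with YTHDF2. It was higher in all 4 RIP libraries. In input the tRNA medians were 11.5 and 8.38 FPKM, against mRNA medians of 1406 and 1213 FPKM.

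The most abundant tRNAs in input were strongly lowered. mt-Te (tRNA for glutamate, minus strand) lies between mt-Nd6 and mt-Cytb, and mt-Tl1 (a tRNA for leucine) lies between mt-Rnr2 and mt-Nd1. Their sequences from the GENCODE transcripts are given to set them beside tRNAs with smaller changes further on (GRCm38, chrM:14071-14139 minus strand and chrM:2676-2750 plus strand).
mt-Te: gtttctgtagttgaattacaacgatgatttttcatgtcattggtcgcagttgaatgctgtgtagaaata
mt-Tl1: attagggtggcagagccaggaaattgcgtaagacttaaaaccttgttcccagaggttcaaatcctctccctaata

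mt-Te stood at 201 and 138 FPKM in input, 2.93 and 27.6 FPKM with anti-YTHDF1 and 3.51 and 19.9 FPKM with anti-YTHDF2. mt-Tl1 stood at 151 and 62.8 FPKM in input, 3.20 and 12.1 FPKM with anti-YTHDF1 and 1.22 and 10.6 FPKM with anti-YTHDF2. For both, every RIP library was well below both input libraries. With YTHDF2 they fell by 4.11 and 4.28 (SE 1.03 and 0.89, adjusted p = 0.0352 and 0.0234 by limma). With YTHDF1 the changes were -3.98 and -3.74 (adjusted p = 0.0751 and 0.0671 by limma).

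The other tRNAs past the threshold were mt-Tm (methionine), mt-Tw (tryptophan), mt-Tf (phenylalanine) and mt-Tv (valine). mt-Tm stood at 9.11 and 7.52 FPKM in input, 0.162 and 1.29 FPKM with anti-YTHDF1 and 0.147 and 0.587 FPKM with anti-YTHDF2. It fell in both, with changes of -2.51 and -2.78 (SE 0.40, adjusted p = 0.0360 and 0.0145 by limma). mt-Tw, whose start overlaps the end of mt-Nd2 by 2 bases, stood at 8.06 and 7.78 FPKM in input, 0.805 and 1.67 FPKM with anti-YTHDF1 and 1.22 and 1.94 FPKM with anti-YTHDF2. It fell by 2.02 and 1.81 (SE 0.34, adjusted p = 0.0369 and 0.0198 by limma). The SEs of mt-Tm and mt-Tw were the smallest of the members. Their RIP values, at most 1.94 FPKM, lay near or below the pseudocount of 1, which narrows the spread of low values. With a pseudocount of 0.1, the tRNAs called lower were 1 instead of 2 with YTHDF1 and 4 instead of 6 with YTHDF2.

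mt-Tf, the first gene of the plus strand, stood at 38.7 and 26.0 FPKM in input, 1.25 and 6.57 FPKM with anti-YTHDF1 and 0.252 and 5.94 FPKM with anti-YTHDF2. It fell by 3.47 with YTHDF2 (SE 0.86, adjusted p = 0.0348 by limma), and its change with YTHDF1 was -2.99 (adjusted p = 0.0927 by limma). mt-Tv, between the rRNAs, stood at 11.5 and 3.64 FPKM in input, 0.0657 and 0.763 FPKM with anti-YTHDF1 and 0.494 and 1.74 FPKM with anti-YTHDF2. It fell by 1.91 with YTHDF2 (SE 0.55, adjusted p = 0.0497 by limma), and its change with YTHDF1 was -2.47 (adjusted p = 0.0574 by limma). Both were lower than input in every RIP library.

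The tRNAs with the smallest changes were not the same in both RIPs. With YTHDF2 they were mt-Th, mt-Tl2 and mt-Ts2, and with YTHDF1 they were mt-Ta and mt-Tn, followed by mt-Tk. Both runs of adjacent genes that hold the first 5 of these are described here. They were picked out after their values were seen, and no test of position was made. The first run is mt-Th (histidine), mt-Ts2 (a tRNA for serine) and mt-Tl2 (a tRNA for leucine), which lie end to end between mt-Nd4 and mt-Nd5 on the plus strand (GENCODE transcripts, GRCm38, chrM:11546-11612, chrM:11613-11671 and chrM:11671-11741). The capitals in mt-Ts2 mark the only GAACT of the 22 tRNAs.
mt-Th: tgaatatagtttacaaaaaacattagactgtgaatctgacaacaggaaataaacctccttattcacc
mt-Ts2: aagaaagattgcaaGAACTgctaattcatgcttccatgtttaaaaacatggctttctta
mt-Tl2: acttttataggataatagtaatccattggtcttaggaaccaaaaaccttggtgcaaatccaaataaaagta

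mt-Th stood at 17.6 and 19.7 FPKM in input, 1.31 and 33.1 FPKM with anti-YTHDF1 and 4.24 and 58.1 FPKM with anti-YTHDF2. mt-Ts2 stood at 11.6 and 11.3 FPKM, then at 0.963 and 11.3 FPKM and at 3.44 and 21.5 FPKM. mt-Tl2 stood at 9.54 and 5.56 FPKM, then at 0.790 and 9.06 FPKM and at 2.18 and 13.4 FPKM. In each case replicate 1 of a RIP was below input and replicate 2 near or above it. The groups overlapped except for mt-Ts2 with YTHDF1, where replicate 2 was only just below both input libraries. The input mean of mt-Th was 1.08-fold the YTHDF1 RIP mean and 0.599-fold the YTHDF2 RIP mean, the lowest such ratios of the tested members. The changes of the 3 tRNAs were -1.14, -1.34 and -0.97 with YTHDF1 and -0.16, -0.32 and -0.30 with YTHDF2, with adjusted p from 0.404 to 0.947 by limma. Their YTHDF2 changes became positive under a scaling of each library to the same FPKM sum (TPM-like), under which the median of all tested genes was 0.79, and that of mt-Th also with a pseudocount of 5.

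The second run is mt-Ta (alanine), mt-Tn (asparagine), mt-Tc (cysteine) and mt-Ty (tyrosine), which lie together on the minus strand between mt-Nd2 and mt-Co1 (GENCODE transcripts, GRCm38, chrM:5018-5086, chrM:5089-5159, chrM:5192-5257 and chrM:5260-5326). They are printed in the sense of the tRNA.
mt-Ta: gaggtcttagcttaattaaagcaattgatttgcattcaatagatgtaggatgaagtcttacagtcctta
mt-Tn: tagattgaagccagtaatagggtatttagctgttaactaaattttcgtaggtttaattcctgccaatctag
mt-Tc: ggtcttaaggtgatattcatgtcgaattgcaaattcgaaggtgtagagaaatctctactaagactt
mt-Ty: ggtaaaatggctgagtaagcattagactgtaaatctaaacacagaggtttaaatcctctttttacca

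mt-Ta stood at 12.7 and 12.1 FPKM in input, 5.04 and 16.8 FPKM with anti-YTHDF1 and 2.30 and 12.4 FPKM with anti-YTHDF2. mt-Tn stood at 24.3 and 26.8 FPKM, then at 7.30 and 29.5 FPKM and at 3.98 and 20.2 FPKM. YTHDF1 RIP replicate 2 was above both input libraries for both genes, and replicate 1 was below them. mt-Tc stood at 31.6 and 22.2 FPKM in input, 4.82 and 24.8 FPKM with anti-YTHDF1 and 2.34 and 11.2 FPKM with anti-YTHDF2. mt-Ty stood at 19.8 and 8.86 FPKM in input, 2.52 and 14.3 FPKM with anti-YTHDF1 and 0.873 and 5.16 FPKM with anti-YTHDF2. With YTHDF2 the 4 changes lay between -2.11 and -1.01, and with YTHDF1 between -1.17 and -0.37. None passed in either contrast (adjusted p of 0.110 to 0.778 by limma), and the libraries of mt-Tn, mt-Tc and mt-Ty in the YTHDF2 RIP lay below input without overlap. With YTHDF2, mt-Tc and mt-Ty changed by -2.11 and -2.08, further from 0 than mt-Tv and mt-Tw, which passed. The neighboring mRNA mt-Nd2 was lower than input in every RIP library, and the ratio of mt-Tn to mt-Nd2 in FPKM was 0.0279 and 0.0269 in input against 0.274 to 1.004 in the RIPs.

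The 6 other tested tRNAs (mt-Ti, mt-Tk, mt-Tg, mt-Tr, mt-Tt and mt-Tp) did not pass in either contrast. Their changes lay between -2.21 (mt-Tp) and -0.95 (mt-Tk) with YTHDF1 and between -1.83 (mt-Tp) and -0.73 (mt-Tk) with YTHDF2. mt-Tp, the tRNA for proline, stood at 18.5 and 16.5 FPKM in input and was lower in every RIP library, at 0.716 and 8.29 FPKM with YTHDF1 and 2.02 and 7.93 FPKM with YTHDF2. Of the untested tRNAs, mt-Ts1 had 0.303 and 1.21 FPKM in input, was listed at 0 in both YTHDF1 RIP libraries and had 0.0869 and 0.0916 FPKM in the YTHDF2 RIP. mt-Tq had 1.97 and 1.90 FPKM in input, 0.137 and 0.0132 FPKM with anti-YTHDF1 and 0 and 0.441 FPKM with anti-YTHDF2. mt-Td had 2.04 and 2.84 FPKM in input, 0 and 0.201 FPKM with anti-YTHDF1 and 0.00389 and 0.372 FPKM with anti-YTHDF2. All 3 were below input in every RIP library.

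Between the antibodies 0 of 34 members differed at an adjusted p under 0.05 by limma, where 0.00904% of all tested genes did, and 1 member (mt-Rnr2) had an unadjusted p under 0.05. At that unadjusted p, 86 of all tested genes were lower and 391 higher in the YTHDF2 RIP. The changes of the mRNAs from the YTHDF1 to the YTHDF2 RIP lay between -0.41 (mt-Co2, SE 1.24) and 0.92 (mt-Nd6, SE 1.08). The SEs of the 13 mRNAs were 0.91 or more on the log2 scale, and they include the shift between replicate numbers that both RIPs shared. With the replicate block they were 0.66 to 0.86, and again 0 of 34 members passed. That block fits 1 shift for input and both RIPs, although input did not deviate with them (r = -0.142 and -0.137). It is therefore not a pairing of the RIPs alone. Within a replicate number the YTHDF2 over YTHDF1 ratios of the mRNAs ran from 0.756 (mt-Co2) to 3.09 (mt-Nd6) in replicate 1. In replicate 2 they ran from 0.739 (mt-Co2) to 1.46 (mt-Nd4).

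The 5-base motifs GGACT and GAACT, forms of the sequence in which N6-methyladenosine is most often found in mRNA, were counted on the sense strand of the members. The 13 mRNAs held 8 GGACT, in 5 of them, and 11 GAACT, in 6 of them, or 0.702 and 0.965 per kilobase. The longest transcripts of 21806 nuclear protein-coding genes held 1.06 and 1.14 per kilobase. The rRNAs held 4 of each, or 1.58 per kilobase. The tRNAs held 0 GGACT and 1 GAACT. Of windows of 784 bases in the nuclear transcripts, the median length of the mitochondrial mRNAs, 55.3% held a GGACT and 57.6% a GAACT. Of windows of 68 bases, about the length of a tRNA, 6.57% and 7.01% did. mt-Co3 held 3 GGACT, whereas mt-Co1, mt-Atp8, mt-Nd3, mt-Nd6 and mt-Cytb held neither motif. A match is a description of the sequence and says nothing of modification.

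Nuclear genes for the same machinery were compared with the members. Of 73 tested nuclear genes of the respiratory chain and ATP synthase, 6 fell and 0 rose with YTHDF1 and 24 fell and 0 rose with YTHDF2, and the list medians were -0.65 and -1.003. Of all tested genes 1.94% and 6.66% fell and 0.624% and 11.9% rose. Uqcrb, a complex III subunit, had 35.8 and 32.9 FPKM in input, 3.64 and 3.09 FPKM with anti-YTHDF1 and 3.33 and 3.27 FPKM with anti-YTHDF2 (changes of -3.02 and -3.04, adjusted p = 0.0294 and 0.0144 by limma). Ndufv2 (-2.01 and -2.17) and Ndufb4 (-1.89 and -2.25) of complex I and Cox6c of complex IV (-1.99 and -2.14) fell in both RIPs. By complex, the genes that fell with YTHDF2 were 10 of 35 in complex I, 0 of 4 in complex II, 4 of 9 in complex III, 6 of 10 in complex IV and 4 of 15 in complex V, beside the same 6.66% of all tested genes.

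Of 69 tested genes for mitochondrial ribosomal proteins, 0 passed with YTHDF1 and 7 fell with YTHDF2, with medians of -0.34 and -0.36. With YTHDF2, 6.66% of all tested genes fell. Mrpl18 (-2.47), Mrpl52 (-1.71), Mrps15 (-1.49) and Mrpl39 (-1.43) fell most. Of 39 tested factors for mitochondrial transcription, RNA processing and translation, 1 fell with YTHDF1, and 3 rose and 2 fell with YTHDF2, with medians of -0.07 and 0.14. These shares were near or below the 1.94% that fell with YTHDF1 and the 11.9% that rose and 6.66% that fell with YTHDF2 among all tested genes, so the genes named next are no result about the list. Grsf1, an RNA-binding protein of mitochondrial RNA granules, fell in both (-1.999 and -1.71), from 17.1 and 18.6 FPKM in input to between 3.21 and 5.69 FPKM in the RIPs. With YTHDF2, Ssbp1, the mitochondrial single-stranded DNA-binding protein, fell by 1.30, whereas Twnk, the mitochondrial DNA helicase, rose by 2.06 and Gtpbp3, an enzyme of mitochondrial tRNA modification, rose by 1.19. Twnk had 3.27 and 4.65 FPKM in input and 17.8 and 21.4 FPKM in the YTHDF2 RIP. The nuclear lists thus stood nearer to the median of all genes than the mitochondrial mRNAs did, in both contrasts.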

How the data were processed

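The authors deposited 1 FPKM value per gene and library, without read counts. The methods of the study name STAR 2.5, Cufflinks 2.2.1 and GRCm38, whereas the submitters' processing notes name Bowtie 0.12.2, mm8 and mm9. The sources do not state which of these made the FPKM table, nor how reads of overlapping or near-identical genes were divided. FPKM divides by the library total, so the loss of an abundant class raises all others.

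IDs were joined to GENCODE M21 (GRCm38), where 147 of 52550 had no entry. limma 3.58.1 (R 4.3.3) was fitted to log2(FPKM + 1) over all 6 libraries with a mean per group (3 residual degrees of freedom, intensity trend), for the 11057 genes averaging 1 FPKM or more. Tests were 2-sided, with Benjamini-Hochberg adjustment over all tested genes at 0.05. Log2 changes are on this scale and understate those of low genes. Nuclear copies were found with blastn 2.17.0 among GENCODE transcripts, so unannotated copies were not searched. All mRNAs and rRNAs are named with values, tRNAs above 0 with values or in a range, and at most 4 passing genes of a pathway list in each contrast by size of change. The members and lists were chosen with earlier results of these data known.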

Additional observations from a re-analysis of the deposited data

Results flagged for a closer look

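The rRNA sum over the mRNA sum moved in opposite directions in the RIPs, and this was not tested. Input had 7.08 and 7.75. The YTHDF1 RIP had 20.1 and 9.32, both above input, whereas the YTHDF2 RIP had 1.37 and 1.21, both below. The mean of the YTHDF1 RIP was 11.4 times that of the YTHDF2 RIP. In a search of 68 values for every library of one RIP above input and every library of the other below it, this ratio alone was flagged. Other forms of the same ratio had that pattern too, namely without mt-Rnr1, to the median mRNA and as FPKM times length. mt-Rnr2 in the YTHDF1 RIP, 2175 and 14323 FPKM, decided the upward shift, since without mt-Rnr2 the YTHDF1 RIP libraries had 8.67 and 1.30 beside 4.27 and 5.69 in input. The downward shift in the YTHDF2 RIP was there without either rRNA.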

How the results depend on the processing

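All 13 mRNAs and both rRNAs kept a negative change against input in every alternative, whereas some tRNAs changed sign, as given below. With all 6 libraries kept, 0 members were called higher than input at an adjusted p under 0.05 by limma in any alternative. Members passing with YTHDF1 (4) and YTHDF2 (17) were 3 and 14 with a pseudocount of 0.1, 5 and 16 with 5, 0 and 0 without a filter (21 and 21 at an unadjusted p under 0.05), 10 and 16 with a mean of at least 5 FPKM, 13 and 20 with median of ratios, 7 and 18 scaled to nuclear coding genes, 0 and 5 with a TPM-like scaling (17 and 17 unadjusted), 7 and 16 without a trend and 3 and 17 with nuclear copies added. Leaving out 1 library gave 0 to 15 and 0 to 18. All genes passing with YTHDF1 (284) were 634 with median of ratios, 604 scaled to coding genes (226 higher and 378 lower, beside 69 and 215), 0 without a filter or with a TPM-like scaling, and 0 to 802 without 1 library. With YTHDF2 (2049, 1313 higher and 736 lower) they were 0 without a filter, 1243 with a mean of at least 5 FPKM, 1893 with median of ratios (750 higher, 1143 lower), 2254 scaled to coding genes (1191 and 1063), 2496 with the TPM-like scaling (2271 and 225), and 0 to 2141 without 1 library. Between the antibodies 1 gene passed, or 0 with a pseudocount of 0.1, without a filter, with a mean of at least 5 FPKM, with median of ratios or TPM-like, and 0 to 1 without 1 library. The TPM-like scaling moved the median of all genes to 0.49 and 0.79. Under it, 487 and 507 of all tested genes were lower at an unadjusted p under 0.05, and 2533 and 3899 were higher. Without a filter, 2107 and 2101 of 31996 genes were lower at that p, and 1815 and 3457 were higher.

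Same-numbered libraries deviated together between the RIPs (r = 0.682 over genes) but not between input and either RIP (-0.142 and -0.137), so the numbers were not taken as pairs in the main fit. The RIPs alone were not fitted as pairs, so the test between the antibodies keeps their shared shift in its error. With the replicate block 22 and 25 members passed against input, and 1432, 3349 and 2 genes in the 3 contrasts. With the input numbers crossed in that block, added after seeing the data, 24 and 26 members and 2239, 4007 and 2 genes passed.

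Some tRNAs changed sign. Under the TPM-like scaling mt-Ta was at 0.15 with YTHDF1, and mt-Th, mt-Ts2 and mt-Tl2 were at 0.45, 0.28 and 0.27 with YTHDF2, where mt-Th was at 0.0299 with a pseudocount of 5. Without 1 library the YTHDF1 changes ranged from -1.15 to 0.41 (mt-Ta), -1.68 to 0.20 (mt-Tn), -2.02 to 0.092 (mt-Ty), -3.09 to 0.80 (mt-Th), -2.22 to 0.27 (mt-Tl2) and -2.07 to 0.0409 (mt-Tt). The YTHDF2 changes ranged from -1.71 to 0.25 (mt-Tk), -2.27 to 0.67 (mt-Tg), -1.83 to 0.23 (mt-Tr), -1.91 to 1.59 (mt-Th), -1.49 to 0.86 (mt-Ts2), -1.39 to 0.79 (mt-Tl2) and -2.95 to 0.12 (mt-Tt). From YTHDF1 to YTHDF2 all 13 mRNAs changed sign in some alternative, between -1.98 and 2.502, and 0 passed.

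The log2 of the mitochondrial share over input, -3.09 with YTHDF1 and -5.22 with YTHDF2, ranged from -4.91 to -2.31 and from -7.67 to -4.36 without 1 library, and for tRNAs alone it was -1.23 with YTHDF1 and -1.13 with YTHDF2. The rRNA to mRNA ratio in input was 2.43 without mt-Rnr1, 4.98 without mt-Rnr2, 106 to the median mRNA and 8.55 as FPKM times length. It was 4.99 without mt-Rnr2 and 275 to the median mRNA in the YTHDF1 RIP, and 0.556, 0.733, 22.1 and 1.60 under the 4 alternatives in the YTHDF2 RIP. The causes were not tested. The files give no counts, so no interval for counting error can be given, and tRNA values rest on the least signal.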
